A study of Rattus norvegicus with 6 samples.

Results

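The enzymes that remove superoxide and peroxides were examined in the renal cortex of rats given the herbicide monuron or its vehicle. The set holds 10 genes: the superoxide dismutases Sod1 and Sod2, catalase (Cat), the glutathione peroxidases Gpx1, Gpx3 and Gpx4, and the peroxiredoxins Prdx1, Prdx2, Prdx3 and Prdx6. The members were taken by gene name, and every array probe whose accession maps to one of them was used, which gave 16 of the 61537 probes that are not controls, and 10 of the 15645 genes that could be named. Male Sprague-Dawley (Crl:CD(SD)) rats, 5 weeks old when purchased, received corn oil or monuron at 200 mg/kg/day for 4 weeks, 3 rats in each of the 2 groups. Total RNA of the cortex, carrying the Cy3 dye, was read on 1-colour Agilent arrays. The cortex was taken whole, so each value averages over all of its cell types, and fewer cells of a type and less RNA per cell cannot be told apart. The corn oil arrays shared a slide and a scan day and the monuron arrays another, so treatment cannot be told apart from slide or from scan day in any value given here.

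Superoxide, which leaks from the respiratory chain and is made by NADPH oxidases, is converted to hydrogen peroxide and oxygen by the superoxide dismutases. Hydrogen peroxide is then removed along separate routes: catalase splits it in peroxisomes, the glutathione peroxidases reduce it with glutathione, and the peroxiredoxins reduce it with electrons from thioredoxin or, for Prdx6, from glutathione. The glutathione peroxidases studied here carry selenocysteine in the active site. In kidney these enzymes are abundant in the proximal tubule, a cell type rich in mitochondria and peroxisomes, and that tubule is the main source of the Gpx3 protein found in blood plasma. Several of the enzymes, Sod1, Cat, Gpx1 and Prdx2 among them, are also abundant in red cells.

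A level is the processed signal of a probe divided by the 75th percentile of its array, and the groups were compared with limma on the log2 scale. All 16 probes were well above background on all 6 arrays, none had an outlier spot, and their levels ran from 2.72 to 347. Levels of different probes are not set against each other, since probes differ in how strongly they bind. None of the 16 probes passed the test, with 0 called higher and 0 lower at an adjusted p under 0.05 over all 41125 probes tested, where 0.832% of all probes were called higher (342) and 0.391% lower (161). Over all probes that split was 435 and 78 without scaling and 403 and 28786 with spike-in scaling. At an unadjusted p under 0.05 limma had 0 of the members' probes higher (10.4% of all probes) and 3 lower (7.09%). These 3 were the probes of Gpx1 and Gpx3. The median log2 fold change of the members was 0.07, with a range from -0.40 to 0.17, beside a median of 0.02 over all probes. Of the 16 probes 13 had a log2 fold change above 0, against 54.2% of all probes, and 13 lay within 0.2 of 0, against 65.2%. These directions are relative to the 75th percentile: scaled on spike-in controls all 16 lay below 0, with a median of -0.44 beside -0.48 over all probes.

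The intervals bound what could have gone unseen only relative to the scaling used, and they hold no error between slides or scan days. With spike-in scaling Gpx3 stood at -0.9, the Gpx1 probes at -0.73 and -0.76 and Cat at -0.46, each below its interval. Without scaling these probes stood within their intervals. With the percentile scaling the 95% interval of the fold change lay within 1.5-fold in both directions for 15 of the 16 probes. The exception was Gpx3, and 11 probes lay within 1.3-fold. The standard error was small for these bright probes, with a median of 0.07 against 0.11 over all probes. At that error a difference of 0.48 on the log2 scale, or 1.39-fold, would have been needed to reach the largest p that was called, 0.000604. The corn oil and monuron arrays did not overlap in 8 of the 16 probes, with 5 higher and 3 lower with monuron. Over all probes the groups did not overlap in 25.6%, with 14.9% higher and 10.7% lower.

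**Figure D1:**
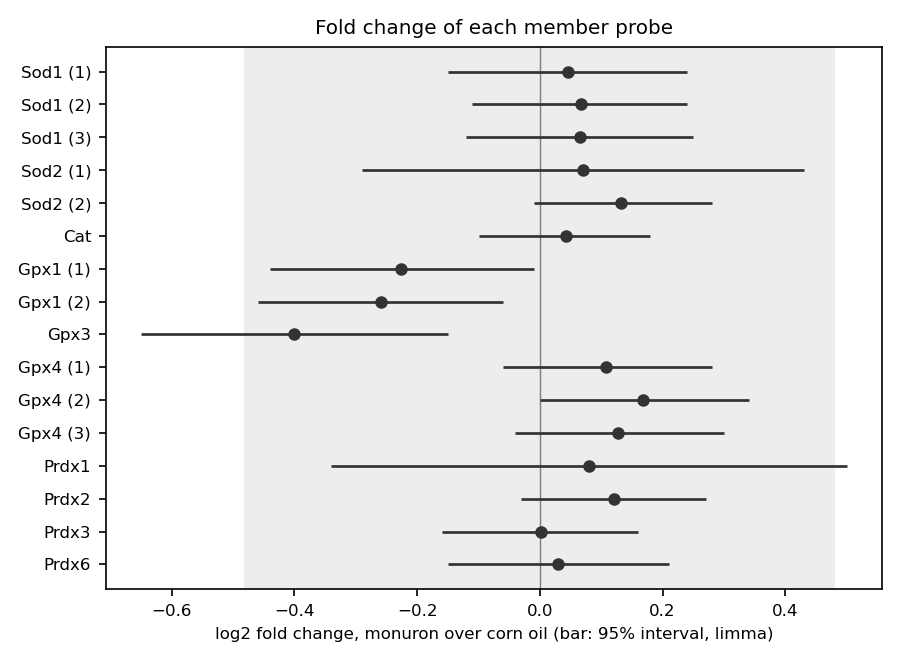
Log2 fold change, monuron over corn oil, of each of the 16 probes of the 10 genes, with bars for the 95% interval from limma, 3 arrays per group, and probes numbered from the brightest within a gene. The grey band spans 0.48 on either side of 0, the difference needed for a call at the median error. The intervals of the Gpx1 and Gpx3 probes lie below 0, and no other probe's interval excludes 0.

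The 5 superoxide dismutase probes had log2 fold changes between 0.05 and 0.13. Sod1, the copper and zinc enzyme of the cytosol, was read by 3 probes. Probe A_43_P14620 gave levels of 279, 257 and 258 on corn oil replicates 1 to 3 and of 286, 252 and 281 on monuron replicates 1 to 3. The groups overlapped, and the log2 fold change was 0.05 ± 0.08 (SE, n = 3 per group, limma adjusted p = 0.804). The other 2 probes, A_64_P047367 and A_44_P461197, also overlapped between the groups and had log2 fold changes of 0.07 ± 0.07 and 0.06 ± 0.08. Scaled on spike-in controls the Sod1 probes stood at -0.46, -0.44 and -0.44.

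Sod2, the manganese enzyme of the mitochondrial matrix, was read by 2 probes. The brighter, A_64_P110103, gave 8.37, 8.45 and 8.28 with corn oil and 11, 7.54 and 8.19 with monuron. Monuron replicate 1 stood above all other arrays, and the other monuron arrays stood below all corn oil arrays. The SD of the log2 level was 0.014 with corn oil and 0.28 with monuron, and the log2 fold change was 0.07 ± 0.15 (adjusted p = 0.842) with all arrays and -0.09 without monuron replicate 1. The dimmer probe, A_43_P11792, gave 2.72, 2.78 and 2.83 with corn oil and 2.98, 3.05 and 3.10 with monuron. Its groups did not overlap, and it was 1.10-fold higher with an interval of -0.01 to 0.28 on the log2 scale (adjusted p = 0.323). The high reading of monuron replicate 1 was therefore seen by 1 of the 2 Sod2 probes and not by the other.

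Catalase, the heme enzyme that splits hydrogen peroxide in peroxisomes, had levels of 7.59, 7.52 and 7.62 with corn oil and 7.69, 7.79 and 7.93 with monuron. All monuron arrays stood above all corn oil arrays, but by a log2 fold change of only 0.04 ± 0.06, with an interval from -0.10 to 0.18 (adjusted p = 0.747). Cat was read by a single probe, and with a normexp background correction the sign turned, at -0.07.

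The glutathione peroxidases were the one family of the set in which members stood on opposite sides of 0 relative to the 75th percentile. Gpx1, the cytosolic and mitochondrial enzyme, was read by 2 probes that gave close values. Probe A_44_P123315 gave 347, 337 and 325 with corn oil and 305, 281 and 259 with monuron. Probe A_42_P805300 gave 330, 346 and 332 with corn oil and 318, 280 and 265 with monuron. Every monuron array stood below every corn oil array on both probes. They were 1.20-fold lower (95% interval 1.04 to 1.38, unadjusted p = 0.0205, adjusted p = 0.202) and 1.17-fold lower (1.01 to 1.36, unadjusted p = 0.0414, adjusted p = 0.264), and neither was called.

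Gpx3, the secreted enzyme, showed the largest difference of the set. Its probe A_44_P500949 gave 333, 296 and 310 with corn oil and 244, 210 and 259 with monuron. The highest monuron array stood below the lowest corn oil array. The log2 fold change was -0.40 ± 0.10, which is 1.32-fold lower with a 95% interval of 1.11 to 1.57 (limma unadjusted p = 0.00786, adjusted p = 0.137), and it was not called. The sign was negative under each of the 21 alternatives, from -0.90 to -0.31, with adjusted p from 0.0028 to 0.368. The lowest of these adjusted p came from spike-in scaling, under which 15 of the members' 16 probes and 70% of all probes were called lower.

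Gpx4, which reduces lipid hydroperoxides within membranes and guards against ferroptosis, was read by 3 probes. Probe A_64_P112467 gave 199, 206 and 208 with corn oil and 209, 219 and 233 with monuron. Probe A_64_P129796 gave 54.9, 55.8 and 57.2 with corn oil and 59.4, 63.2 and 66.2 with monuron. Probe A_44_P508341 gave 53.3, 55.5 and 57.8 against 57.7, 61.6 and 62.5. The groups did not overlap on the first and second of these probes, and they overlapped slightly on the third. The log2 fold changes were 0.11 ± 0.07, 0.17 ± 0.07 and 0.13 ± 0.07, with adjusted p-values of 0.476, 0.29 and 0.402, and all 3 lay below 0 with spike-in scaling (-0.40, -0.34 and -0.38).

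**Figure D2:**
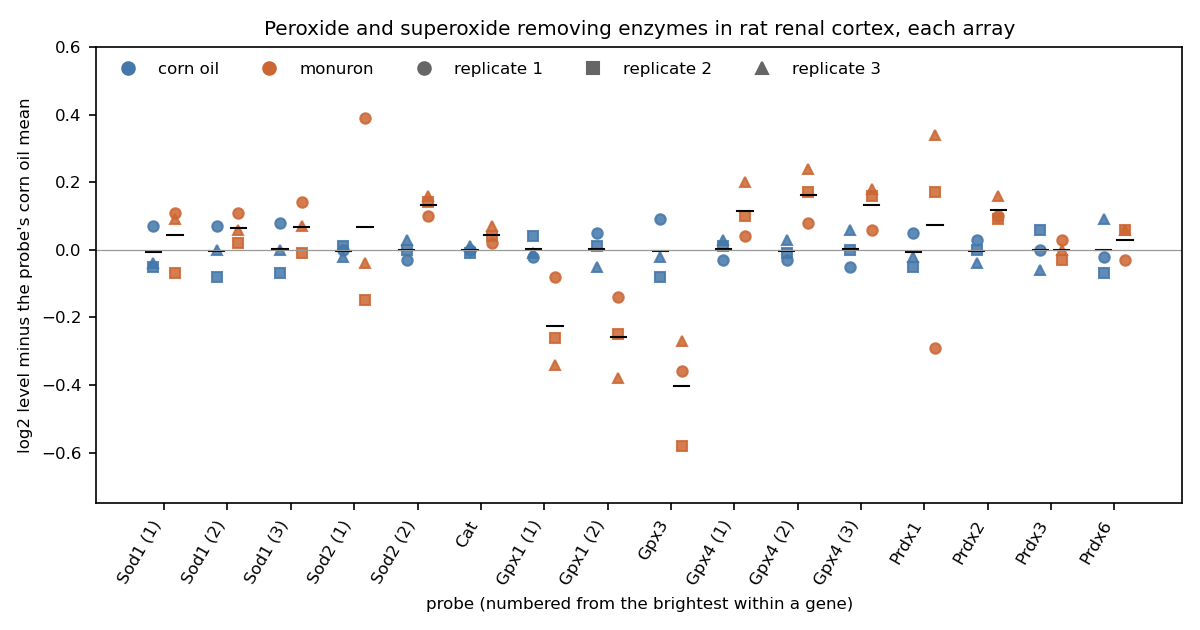
Level of each of the 16 probes on each array, as the log2 difference from the mean of the corn oil arrays, with points for the 3 corn oil and 3 monuron arrays and black lines for their means; probes are numbered from the brightest within a gene. The Gpx1 and Gpx3 points of the monuron arrays lie below those of corn oil, and the monuron points of Prdx1 and of the brighter Sod2 probe are spread widest.

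The difference between 2 genes on the same array does not change when each array is scaled by 1 factor, although quantile normalization and normexp can change it. It was computed for 3 pairs of these genes that were chosen after their values were seen. The log2 level of Gpx4 minus that of Gpx1, each the mean over its probes and centred on the corn oil mean, was -0.05, -0.02 and 0.07 on the corn oil arrays and 0.17, 0.40 and 0.56 on the monuron arrays. For Gpx4 minus Gpx3 it was -0.13, 0.08 and 0.05 against 0.42, 0.72 and 0.47. The groups did not overlap in either pair, and the changes differed by 0.38 and 0.54 on the log2 scale. Gpx1 minus Gpx3 overlapped between the groups, with a difference of 0.16. Since the pairs were picked for these values, they are a description, with no test. On every monuron array Gpx4 stood higher relative to Gpx1 and to Gpx3 than on any corn oil array.

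The sequences before the start sites of Gpx1 and Gpx3 are given because these genes had the lowest values of the set. They are the RefSeq windows of assembly GRCr8 on the plus strand, from 250 bases before to 20 after the annotated start: chr8:117905212-117905481 for Gpx1 and chr10:39529085-39529354 for Gpx3. Capitals mark, on either strand, the GC box GGGCGG and the letters TGANTCAGC, 1 form of the antioxidant response element. Through that element NRF2 activates stress defence genes, and other forms of it were not searched.
Gpx1: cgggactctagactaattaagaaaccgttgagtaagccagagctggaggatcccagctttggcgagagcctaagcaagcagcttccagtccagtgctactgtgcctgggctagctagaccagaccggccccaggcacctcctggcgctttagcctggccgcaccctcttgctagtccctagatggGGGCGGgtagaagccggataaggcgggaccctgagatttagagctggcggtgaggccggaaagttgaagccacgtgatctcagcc
Gpx3: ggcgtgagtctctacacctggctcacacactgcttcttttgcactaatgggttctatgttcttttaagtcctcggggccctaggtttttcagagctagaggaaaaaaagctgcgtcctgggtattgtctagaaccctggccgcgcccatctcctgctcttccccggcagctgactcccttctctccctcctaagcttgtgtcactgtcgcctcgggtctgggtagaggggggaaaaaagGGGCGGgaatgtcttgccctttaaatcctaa
Each window held 1 GC box, at 65 bases before the start in Gpx1 and 11 in Gpx3, and no match to TGANTCAGC. Windows of 300 bases, which reach 50 bases past the start, were present for 9 of the 10 genes, all but Prdx6. The GC box was found in 8 of the 9, all but Cat, and in 33.1% of all 33469 windows. A CCAAT box (CCAAT on either strand) was found in Sod1, Cat, Gpx3 and Gpx4, which is 4 of 9, and in 37.5% of all windows. A TATA box (TATAAA on either strand) was found in Sod1 and Prdx1, 2 of 9, and in 14.2% of all windows. A member gene counts where any of its windows matches, and Gpx4 had several windows, while the shares over all count each window. The 2 measures are therefore unlike, and these are letter matches only.

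The peroxiredoxins had log2 fold changes between 0.00 and 0.12. Prdx2, the cytosolic peroxiredoxin that is most abundant in red cells, gave 36.3, 35.4 and 34.6 with corn oil and 38.0, 37.9 and 39.7 with monuron. The groups did not overlap, and the log2 fold change was 0.12 ± 0.06 (interval -0.03 to 0.27, adjusted p = 0.372). Prdx3, the mitochondrial member, gave 18.9, 19.7 and 18.1 against 19.3, 18.5 and 18.9, with an interval of -0.16 to 0.16. Prdx6, which also acts on oxidised phospholipids, gave 14.3, 13.8 and 15.5 against 14.2, 15.2 and 15.2, with an interval of -0.15 to 0.21. The groups overlapped for Prdx3 and Prdx6, and the sign of both turned when single arrays were left out. With spike-in scaling Prdx2, Prdx3 and Prdx6 stood at -0.38, -0.50 and -0.47.

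Prdx1, a cytosolic peroxiredoxin known as a target of NRF2, was the member whose monuron arrays differed most among themselves. It gave 37.1, 34.6 and 35.2 with corn oil and 29.2, 40.4 and 45.4 with monuron. Monuron replicate 1 was the lowest of all 6 arrays, and monuron replicates 2 and 3 were the highest. The log2 fold change was 0.08 ± 0.17 with an interval of -0.34 to 0.50 (limma adjusted p = 0.843), and the SD of the log2 level was 0.052 with corn oil and 0.33 with monuron. Without monuron replicate 1 it was 0.26 ± 0.09 (adjusted p = 0.297), and without monuron replicate 3 it was -0.05. Scaled on spike-in controls it was -0.42 and called lower (adjusted p = 0.0351, the lowest of the 21 alternatives, the highest being 0.962). Monuron replicate 1, low for Prdx1 and high for the brighter Sod2 probe, was also the array highest in liver transcripts. Its mean log2 level over 10 hepatocyte markers was 1.03, against -0.48 as the lowest of the monuron arrays. Corn oil replicate 3 was the highest of its group in these markers, at 0.26 against -1.33 and -1.64. It stood close to its group for Prdx1 (35.2) and for that Sod2 probe (8.28). Whether liver transcripts have a part in these readings was not tested.

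Over the whole set the monuron arrays spread more than the corn oil arrays. The SD of the log2 level ran from 0.0095 to 0.086 with corn oil, with a median of 0.049. With monuron it ran from 0.022 to 0.33, with a median of 0.078, and was the larger in 13 of the 16 probes. Several of these probes read the same gene. The share over all probes was not computed, so it is not known whether the wider spread is particular to these enzymes. Within its group monuron replicate 1 gave the highest level for 7 probes and the lowest for 7, replicate 2 the highest for 0 and the lowest for 7, and replicate 3 the highest for 9 and the lowest for 2. By these counts replicate 2 stood low and replicate 3 high within the monuron group. The mean log2 level of the 10 genes, each by its brightest probe, lay between 5.67 and 5.70 with corn oil and between 5.62 (replicate 2) and 5.71 (replicate 3) with monuron.

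The genes around these enzymes were read from lists of the same pathways, each gene by its brightest tested probe. Over all 12072 named genes 1.1% were called higher and 0.48% lower, with a median log2 fold change of 0.01. Of 9 other members of the families 8 were tested and 0 were called. The groups did not overlap in 2 of the 8, both lower, beside 10.7% of all probes. At limma's unadjusted p under 0.05, 1 was lower, beside 7.09% of all probes. The median of the 8 was -0.08. Gpx8, a glutathione peroxidase of the endoplasmic reticulum, was 1.39-fold lower (95% interval 1.18 to 1.63, adjusted p = 0.0914). It was called lower under 3 of 21 alternatives, among them normexp (-0.45, limma adjusted p = 0.0389). Sod3, the extracellular superoxide dismutase, was 1.22-fold lower (adjusted p = 0.315).

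Of 19 genes that recycle thioredoxin, glutathione and their oxidised partners 16 were tested, 1 rose and 0 fell, and the median was 0.09. At limma's unadjusted p under 0.05, 5 of them were higher and 2 lower. The gene that rose was Srxn1, sulfiredoxin, which uses ATP to restore peroxiredoxins whose active cysteine has been over-oxidised. Its log2 level was 1.11, 0.85 and 1.48 with corn oil and 2.79, 2.60 and 3.14 with monuron. The groups were far apart, and Srxn1 was 3.24-fold higher (2.28 to 4.61, log2 fold change 1.70 ± 0.21, adjusted p = 0.0319), with its probes between 1.24 and 1.70. The call was lost under 8 of 21 alternatives, among them leaving out corn oil replicates 1 or 2 or any monuron replicate, where the log2 fold change stayed between 1.55 and 1.82, and adjusted p ran from 0.00413 to 0.169 over all 21. The intervals of Prdx1, Prdx2 and Prdx3, which are among its substrates, all included 0. That of Prdx1 ran from -0.34 to 0.50, so these intervals do not show that the substrates were unchanged. With spike-in scaling these 3 were called lower (-0.42, -0.38 and -0.50), as were 70% of all probes, and Srxn1 stood at 1.19. Txnrd2, the mitochondrial thioredoxin reductase, was 1.27-fold lower (adjusted p = 0.133) and not called.

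Srxn1 and Prdx1 shared a feature of sequence, and their windows (GRCr8, plus strand, chr3:161064562-161064831 and chr5:135383656-135383925) are given with the same capitals as above because 1 of these genes was called and the other was not.
Srxn1: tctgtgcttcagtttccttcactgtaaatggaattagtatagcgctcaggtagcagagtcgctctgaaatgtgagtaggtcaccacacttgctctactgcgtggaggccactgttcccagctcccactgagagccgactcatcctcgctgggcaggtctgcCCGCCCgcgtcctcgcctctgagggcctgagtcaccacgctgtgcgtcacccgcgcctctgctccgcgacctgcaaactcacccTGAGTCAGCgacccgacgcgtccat
Prdx1: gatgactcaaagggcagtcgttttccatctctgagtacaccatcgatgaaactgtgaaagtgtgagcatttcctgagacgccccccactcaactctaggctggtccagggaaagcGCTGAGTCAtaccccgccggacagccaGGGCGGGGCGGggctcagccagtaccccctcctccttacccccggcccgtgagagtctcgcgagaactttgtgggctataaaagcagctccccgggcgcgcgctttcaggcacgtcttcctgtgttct
The 9-letter motif TGANTCAGC began 5 bases before the start in Srxn1, on the plus strand, and ran past the start. In Prdx1 its match began 135 bases before the start and lay on the minus strand. Prdx1 was the only 1 of the 9 members with a window that held it, and 1.11% of all windows did. A window without these letters says nothing about the factor, and a match is not a site.

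Genes of the glutathione synthesis list had a median of 0.55 over 4 tested of 5, also with Gclm at its bound. Of these 0 were called, and 1 had an unadjusted p under 0.05. Gclm, the modifier subunit of the rate-limiting ligase, did not exceed background clearly on the corn oil arrays (0 of 3 well above it). It entered the test through the monuron arrays alone, and its size is not settled. As measured its difference was 2.57 ± 0.57 on the log2 scale (limma adjusted p = 0.11). The bound, with low values set to a floor, was 0.94 or 1.92-fold (limma adjusted p = 0.407). With normexp Gclm stood at 0.62 (limma adjusted p = 0.0882), so the bound did not hold under every setting. With spike-in scaling it was called higher, at 2.06 (limma adjusted p = 0.0174). For Gss, glutathione synthetase, the difference was 0.38 ± 0.16 on the log2 scale (adjusted p = 0.295) and -0.13 with spike-in scaling. Of 12 genes of selenoprotein synthesis and other selenoproteins 11 were tested and 0 called, with a median of 0.00 and 1 gene each way at an unadjusted p under 0.05. Eefsec, the elongation factor that delivers selenocysteine to the ribosome, was 1.27-fold lower (adjusted p = 0.11), and Pstk, the kinase that primes its transfer RNA, 1.13-fold higher (adjusted p = 0.265), which turned to -0.33 with spike-in scaling.

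Of 19 genes whose products make superoxide or hydrogen peroxide 17 were tested, 1 rose and 0 fell, with a median of 0.00. At limma's unadjusted p under 0.05, 3 of them were higher and 1 lower. The gene that rose was Pipox, a peroxisomal oxidase of sarcosine and pipecolate that releases hydrogen peroxide. Its log2 level was -0.90, -1.37 and -0.81 with corn oil and 1.40, 1.56 and 0.96 with monuron, so the groups were well apart. Pipox was 5.04-fold higher (3.50 to 7.25, adjusted p = 0.0144), with probes between 2.19 and 2.33. The call was lost under 6 of 21 alternatives, with log2 fold changes from 2.21 to 2.51 where single arrays (corn oil replicate 1 or any monuron replicate) were left out, and adjusted p ran from 0.0028 to 0.169 over all 21. Nox4, the NADPH oxidase of the kidney tubule, was 1.27-fold higher (adjusted p = 0.112) and Acox2, a peroxisomal acyl-CoA oxidase, 1.89-fold higher (adjusted p = 0.176). The value of Nox4 was -0.16 with spike-in scaling.

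Peroxisome assembly genes, which build the organelle that holds catalase, had a median of -0.03 over 16 tested, with 0 called and 2 each way at an unadjusted p under 0.05. Pex26 was 1.35-fold higher (adjusted p = 0.135) and Pex5, the import receptor, 1.19-fold lower (adjusted p = 0.141). Relative to the 75th percentile all 6 regulators of NRF2 signalling had a log2 fold change above 0 (median 0.09), and 0 were called, with 2 higher at an unadjusted p under 0.05. Bach1, a repressor at antioxidant response elements, was 1.38-fold higher (adjusted p = 0.0516), with its probes between 0.06 and 0.47. Maff, a small MAF protein, cleared background on just 1 of the 3 corn oil arrays, so its size is not settled: its difference was 1.65 ± 0.50 on the log2 scale as measured, 0.96 with low values set to a floor and 0.50 with normexp (adjusted p = 0.183, and 0.0692 to 0.424 over its alternatives). With spike-in scaling the value of Bach1 was -0.04 and that of Pex26 -0.07.

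**Figure D3:**
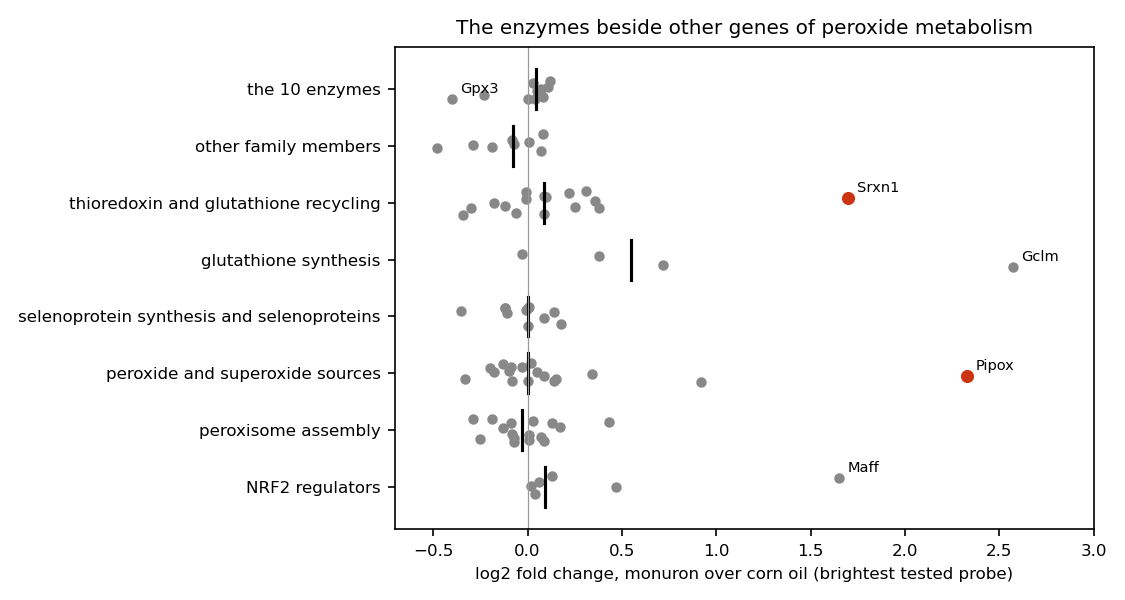
Log2 fold change, monuron over corn oil, of each tested gene of the 10 enzymes and of the lists around them, 1 point per gene by its brightest probe, with a black bar for each list's median and red points for called genes. The 10 enzymes lie between -0.40 and 0.12, while Srxn1 (1.70) and Pipox (2.33) stand far to the right in their lists; Gclm is drawn at its measured value, although no corn oil array read it well above background.

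Cell type markers moved between the arrays beside these values. Of 10 proximal tubule markers, all well above background on every array, 9 stood lower and none passed the test (0 called, 4 lower at an unadjusted p under 0.05), with a median log2 fold change of -0.25. Their mean log2 level lay between 7.10 and 7.15 with corn oil and between 6.81 and 6.93 with monuron, a difference of -0.25 (exact permutation p = 0.1, two-sided, the smallest possible), and their summed level was 2070 to 2420 against 1840 to 2140. Cubn and Lrp2, the endocytic receptors of that tubule, were 1.61-fold and 1.43-fold lower (adjusted p = 0.0697 and 0.0787). Beside these values the mean change of the Gpx1 probes was -0.24 and that of Gpx3 -0.40. The other 13 probes of the enzymes stood between 0.00 and 0.17. The part of proximal tubule RNA in any of these changes was not tested.

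Of 11 red cell markers 9 were tested, 5 rose (Alas2, Hbb, Hbb-b1, Hba-a1 and Klf1) and 0 fell, with a median of 0.99. Their mean log2 level was 1.92 to 2.43 with corn oil and 3.22 to 3.46 with monuron (exact permutation p = 0.1), and their summed level 650 to 894 against 1520 to 1640. Alas2, which starts heme synthesis in erythroid cells, was 3.73-fold higher (2.85 to 4.89, adjusted p = 0.0118), a call lost under 6 of 21 alternatives, among them leaving out corn oil replicate 2 or any monuron replicate, with log2 fold changes of 1.83 to 1.97. The call was lost under 10 of 21 alternatives for Klf1, 8 for Hbb, 8 for Hba-a1 and 7 for Hbb-b1, in each case among them leaving out corn oil replicate 2 or any monuron replicate. The probes of Klf1 differed, at 0.16 and 0.90, and their mean was not called (0.53, adjusted p = 0.102, with 0.016 to 0.576 over its alternatives). The part of red cell RNA in the levels of Prdx2, Cat, Sod1 and Gpx1 was not tested.

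The 10 hepatocyte markers had a median of 1.09 with 0 called and 1 higher at an unadjusted p under 0.05. Their summed level ran from 11.9 to 29.7 with corn oil and from 19.2 to 53.9 with monuron, highest on corn oil replicate 3 and monuron replicate 1 within the groups (difference of the mean log2 level 0.99, exact permutation p = 0.3). Without both of these arrays the log2 fold changes were -0.31 and -0.34 for the Gpx1 probes and -0.43 for Gpx3. Markers of the thick limb and distal nephron, of immune cells and of podocytes and endothelium had medians of 0.03, -0.26 and -0.17, with 0 called in each and, at an unadjusted p under 0.05, 1 podocyte or endothelial gene lower.

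**Figure D4:**
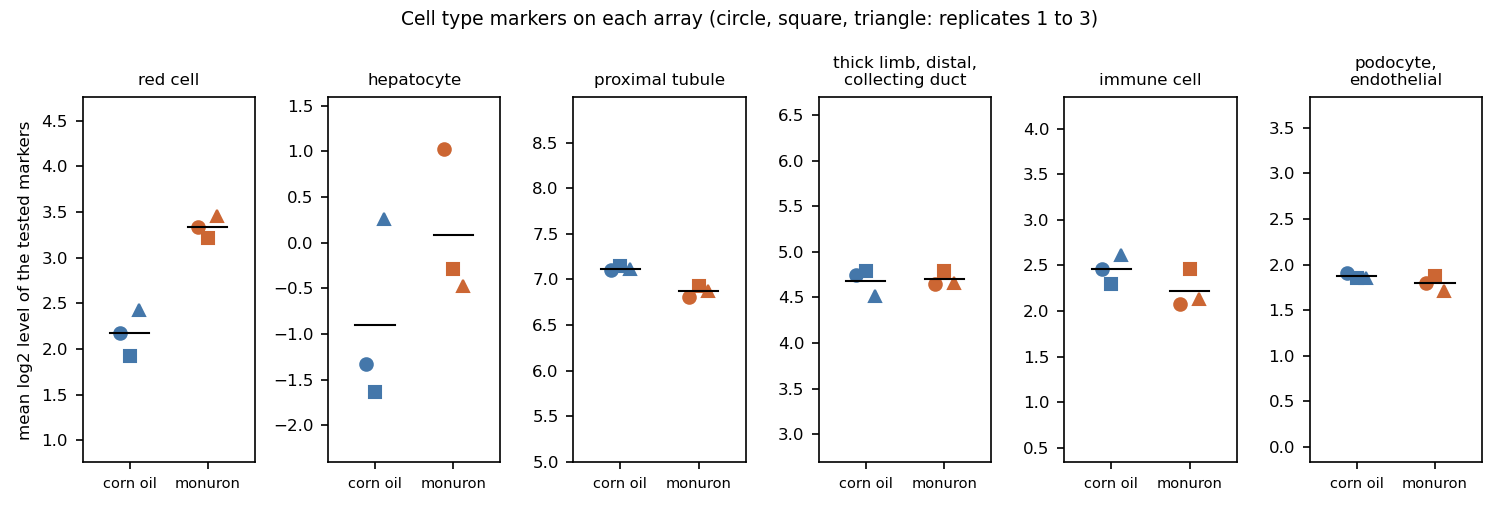
Mean log2 level of the tested markers of 6 cell type lists on each of the 6 arrays, with lines for the group means of 3 arrays; every panel spans the same range of log2 units. Red cell markers are higher and proximal tubule markers lower on all 3 monuron arrays than on any corn oil array, and hepatocyte markers are highest on monuron replicate 1.

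The probe of Gpx3 had the smallest p of the set, and the 3 named genes whose log2 levels followed it most closely over the 6 arrays were Col4a4, a collagen chain of the glomerular basement membrane (Pearson r = 0.9962), Ppfibp2 (0.9951) and Ostm1 (0.9935). Their own log2 fold changes were -0.15, -0.26 and -0.21, and none was called. These correlations are the highest of many over 6 arrays that share 2 groups, and they describe these arrays only.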

How the data were processed

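Renal cortex of 6 rats was hybridised to 1 array each. The deposited scanner files hold spot intensity, which the submitters' processing notes say the authors took with Agilent Feature Extraction 10.7. The authors' deposited value table holds a ratio, which equals the processed signal over 1 constant per array within 0.0497% (values of at least 0.1). Computed here: log2 of each probe's processed signal over its array's 75th percentile, taken over 61537 probes, without the 1439 control spots and outlier spots. The 75th percentile was 824.8 to 922 units, 60.9% to 70.4% of probes were well above background, and 0 spots were saturated. Probes well above background on all 3 arrays of a group (41125) were tested with limma 3.58.1 in R 4.3.3 (lmFit, eBayes, two-sided, Benjamini-Hochberg, threshold 0.05). The number of arrays limits the precision. The script was tested on simulated data.

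Accessions were matched to a RefSeq gene table (GRCr8), which named 28206 probes (45.8%). The array design cites an older build, so probes have no coordinates here. For lists each gene counts by its tested probe with the highest mean. A gene not well above background in a group is given as a bound: the bright mean against the dim arrays' detection floor (their lowest well-above-background signal, or the probe's own where higher). Members and lists were chosen with earlier results of these data known. Named were all members, called list genes, up to 2 further genes of each list with the smallest p, of which those of the cell type lists are named in part, and the 3 symbols most like the Gpx3 probe; 1 list gene of this rule is not reported here. The planned normexp correction (offset 50) used the median spot signal, since the scanner files as given hold no mean. Same-numbered arrays did not deviate together (correlations -0.08, 0.10 and -0.16). The labels name no pairs of rats, and so few arrays cannot exclude a pairing.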

Additional observations from a re-analysis of the deposited data

How the results depend on the processing

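Of 324 values of the 16 member probes over the 21 alternatives, 15 were called, all with spike-in scaling and all lower, among them Gpx3 (-0.90) and both Gpx1 probes (-0.73 and -0.76). In 26 the sign turned. Spike-in scaling gave -0.46, -0.44 and -0.44 for Sod1, -0.43 and -0.37 for Sod2, -0.46 for Cat, -0.40, -0.34 and -0.38 for Gpx4, and -0.42, -0.38, -0.50 and -0.47 for Prdx1, Prdx2, Prdx3 and Prdx6. It also gave -0.16 for Nox4, -0.04 for Bach1, -0.33 for Pstk, -0.07 for Pex26 and -0.13 for Gss. With normexp Cat stood at -0.07 and the Sod1 probe A_44_P461197 at 0.00. Prdx3 stood at -0.01 with quantile normalization and 0.00 with median centring or array weights. With single arrays left out Prdx3 ranged from -0.03 to 0.03, Prdx6 from -0.01 to 0.08, the brighter Sod2 probe from -0.09 to 0.18 and Prdx1 from -0.05 to 0.26. Without both arrays highest in liver transcripts the values were -0.10 for that Sod2 probe, -0.01 for the Sod1 probe A_43_P14620 and -0.04 for Prdx3.

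Over all probes 342 were called higher and 161 lower, and 7 list genes higher and 0 lower. No scaling gave 435 and 78 probes, spike-in scaling 403 and 28786 (15 member probes and 89 list genes lower), normexp 543 and 385 (4 list genes lower), no detection filter 86 and 30 (2 list genes higher), and eBayes with trend and robust 587 and 371 (4 list genes lower). The 4 with normexp were Gpx8, Eefsec, Pex5 and Cubn (limma adjusted p from 0.0235 to 0.0389). Over the 21 alternatives Gpx8, Eefsec and Cubn gained a call as lower under 3, and Pex5 and Lrp2 under 2. Bach1 gained a call as higher under 3. Leaving out single arrays gave 19 to 153 higher and 2 to 37 lower, with 0 to 6 list genes higher. Leaving out both arrays highest in liver transcripts gave 0 and 0, with 0 list genes (3399 probes higher and 2165 lower at limma's unadjusted p under 0.05). With the replicate number as a block, although the labels name no pairs of rats, 0 probes were called either way and 0 list genes. At limma's unadjusted p under 0.05, 3693 probes were higher and 2486 lower in that fit. There Gpx3 stood at -0.40 with adjusted p = 0.227 (0.0028 to 0.368 over its alternatives). Of the 6 arrays 2 correlated best with their own number. Fewer arrays or more probes tested enter some of these settings, and the cause of the other changes was not tested.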
